A study of Homo sapiens with 6 samples.

Results

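A list of 10 genes of the circadian clock was followed in MDA-MB-231 cells given a phosphodiesterase 7A inhibitor. They were the 3 period genes PER1, PER2 and PER3, the cryptochromes CRY1 and CRY2, the nuclear receptors NR1D1 and NR1D2, the transcription factors DBP and TEF, and BHLHE40. They were taken by symbol from a list, and 10 of 10 were found among the 15651 genes of the expression table. All 10 were abundant enough to be among the 15246 genes tested. MDA-MB-231 is an established human triple-negative breast cancer cell line. BRL-50481, a small-molecule inhibitor of the cyclic AMP hydrolase PDE7A, was set against its solvent DMSO, with 3 libraries per group. The growth and treatment notes give 50 µM for 72 hours, whereas the treatment tag of the inhibitor libraries gives 5 µM for 48 hours. The study's figure legends for the sequencing also give 50 µM for 72 hours, and that treatment is taken here. No knockdown or transgene was used in these libraries, every library came from this 1 cell line, and the cultures were sampled at a single time after treatment. The sources used here give neither the hour of harvest nor any step to set the cells' clocks to a common phase.

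The mammalian clock is a loop of transcription. A pair of activators, CLOCK or NPAS2 with BMAL1 (listed here under its older symbol ARNTL), binds E-box sequences and switches on the PER and CRY genes. PER and CRY proteins then return to the nucleus and block the activators. In an interlocked loop NR1D1 and NR1D2 (REV-ERB alpha and beta) repress ARNTL through ROR response elements, and DBP and TEF act on D-box sequences in output genes. BHLHE40 (DEC1) competes for E-boxes. PER1 is also a known target of CREB, the factor that cyclic AMP activates through cyclic AMP response elements (CRE).

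Promoter sequence is shown for NR1D1 and its relative NR1D2, of which the first was called lower and the second was not, and for PER1 and CRY1, each lower after the inhibitor. The sequences are those of RefSeq on GRCh38.p14, which lists 14 promoter windows for the 10 genes. Each is printed 5′ to 3′ in the direction of the gene and lies before the RefSeq start site. The NR1D1 stretch is chr17:40100590-40100839 on the minus strand, and the NR1D2 stretch is chr3:23945871-23946120 on the plus strand, ahead of the downstream of its 2 starts. The PER1 stretch is chr17:8152436-8152654 on the minus strand, shortened to the 219 bases free of annotated exons. It lies inside the annotated span of PER1, chr17:8140472-8156506, and so downstream of the 5′ end of that span. The CRY1 stretch is chr12:107093550-107093799 on the minus strand. Capitals mark matches on either strand to the E-box CACGTG, the D-box TTANGNAA, the ROR element core AGGTCA, the full CRE TGACGTCA and its short core TGACG, which lies inside the full CRE.
NR1D1: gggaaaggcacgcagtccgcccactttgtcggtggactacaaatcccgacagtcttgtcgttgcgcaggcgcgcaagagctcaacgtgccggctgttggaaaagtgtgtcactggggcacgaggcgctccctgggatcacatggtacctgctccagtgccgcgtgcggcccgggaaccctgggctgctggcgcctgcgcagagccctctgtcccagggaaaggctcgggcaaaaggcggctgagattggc
NR1D2: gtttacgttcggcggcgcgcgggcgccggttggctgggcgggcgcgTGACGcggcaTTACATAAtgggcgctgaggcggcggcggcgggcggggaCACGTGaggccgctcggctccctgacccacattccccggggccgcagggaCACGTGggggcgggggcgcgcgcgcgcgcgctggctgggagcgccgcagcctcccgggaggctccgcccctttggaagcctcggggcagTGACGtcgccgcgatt
PER1: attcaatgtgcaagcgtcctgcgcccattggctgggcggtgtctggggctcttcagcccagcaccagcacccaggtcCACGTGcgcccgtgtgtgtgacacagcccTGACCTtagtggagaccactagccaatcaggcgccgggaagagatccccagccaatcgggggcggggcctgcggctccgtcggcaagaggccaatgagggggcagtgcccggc
CRY1: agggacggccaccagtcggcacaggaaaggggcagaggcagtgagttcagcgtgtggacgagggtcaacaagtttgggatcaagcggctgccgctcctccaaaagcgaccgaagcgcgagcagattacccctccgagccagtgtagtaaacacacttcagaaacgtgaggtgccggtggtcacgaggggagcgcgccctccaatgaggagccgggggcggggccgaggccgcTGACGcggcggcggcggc

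The NR1D2 stretch held 2 E-boxes, at positions -155 to -150 and -105 to -100 counted from the start, together with a D-box and 2 short CRE cores. PER1 carried an E-box at -173 to -168 and a ROR element core, read on the other strand, at -144 to -139. A D-box of PER1 at -30 to -23 lies outside the stretch printed. CRY1 held 1 short CRE core, at -18 to -14, and NR1D1 held none of the motifs searched. The full windows are 300 bases, from 250 before to 50 after each start. There the E-box was found for 4 of the 10 genes, BHLHE40, NR1D2, PER1 and TEF. It was in 5 of the 14 windows, beside 7.26% of all 35116 promoter windows. The D-box was found for PER1, PER2, PER3 and NR1D2, in 4 of the 14 windows, beside 10.2% of all windows. The ROR element core was found for CRY2 and PER1, in 3 of the 14 windows, beside 13.8% of all windows. The full CRE was in none of the 14 windows and in 1.85% of all. The short core was found for PER2, NR1D2, CRY1 and CRY2, in 6 of the 14 windows, beside 24.6% of all. These are matches of letters within short windows and say nothing of binding.

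After BRL-50481, 5 of the 10 clock genes were lower (NR1D1, CRY2, PER1, CRY1 and PER3) and 1 was higher (TEF). The other 4, PER2, DBP, NR1D2 and BHLHE40, did not pass the test. The measure was the normalised read count, that is, reads per gene divided by a library scaling factor, and a gene was called at an adjusted p under 0.05 in a limma fit of log2(normalised count + 1) over all genes. Over all genes tested 29.8% were called lower and 28.9% higher, so calls were common in these libraries. The groups did not overlap for 5 of the 10 genes in the lower direction, against 32.3% of all genes, and for 2 in the higher direction, TEF and BHLHE40, against 31.9%. The median log2 fold change of the 10 genes was -0.23, beside 0.01 over all genes. With 10 genes, these counts describe the list and are not a test of it. The values are averages over a culture, so fewer cells carrying an mRNA and less of it per cell cannot be told apart. The cultures were sampled at a single time, so a change in level and a shift in clock phase cannot be told apart either.

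**Figure D1:**
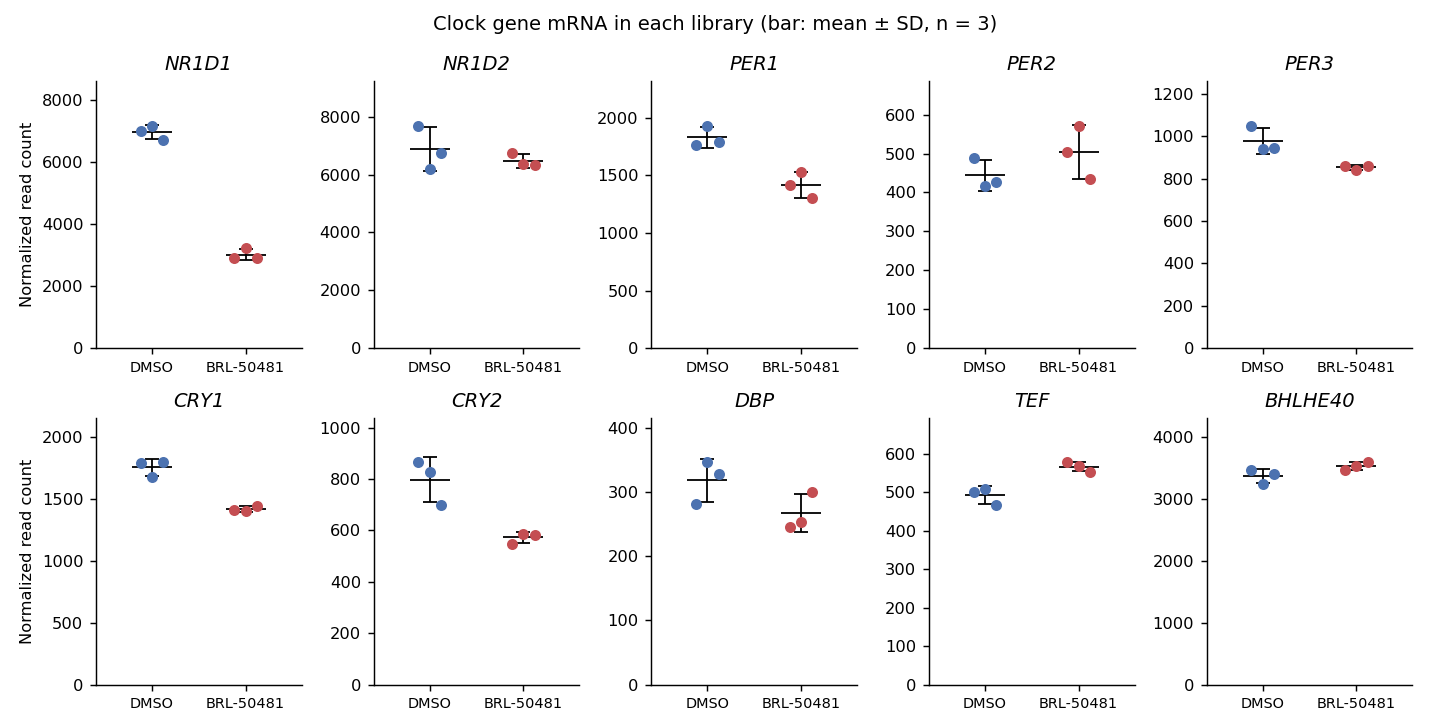
Normalised read count (vertical axes, from 0) of the 10 clock genes in each of 3 DMSO libraries (blue points) and 3 BRL-50481 libraries (red points), with the mean and SD as black bars. NR1D1 fell from 6967 to 3018, while the points of NR1D2, PER2 and DBP overlap between groups.

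NR1D1 showed the largest change of the 10. This heme-binding nuclear receptor represses ARNTL and many metabolic genes. Its normalised read counts were 6994, 7183 and 6722 in the DMSO libraries and 2911, 3237 and 2906 in the BRL-50481 libraries. The highest treated library thus lay far under the lowest control. The mean fell from 6967 ± 232 to 3018 ± 189.8 (SD, n = 3 each), 2.31-fold lower, with a log2 fold change of -1.21 (SE 0.0553, limma adjusted p = 3.74e-09). Leaving out any 1 library kept the log2 fold change between -1.26 and -1.18. It was the only clock gene of the 10 called with a log2 fold change below -1, a size that 2.98% of all genes reached, and it ranked 316 of 15246 from the most lowered gene. The gene lies on chr17:40092793-40100589 of hg38, minus strand, and its exons overlap those of THRA, the thyroid hormone receptor alpha gene, on the opposite strand. THRA had 658, 639.7 and 668 normalised counts in DMSO and 679.5, 776 and 734 in BRL-50481 (log2 fold change 0.15, adjusted p = 0.0895). Reads were counted by strand.

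NR1D2, its close relative with largely shared DNA binding, did not pass the test. Its counts were 7692, 6196 and 6743 in DMSO and 6728, 6347 and 6324 in BRL-50481. The treated libraries sat inside the range of the controls, and DMSO replicate 1 was the highest of all. The log2 fold change was -0.08 (SE 0.0682, adjusted p = 0.31). It was 0.00 without DMSO replicate 1. It passed without DMSO replicate 2, at -0.16 (adjusted p = 0.0389), and after a correction of each library for transcript length and GC content, at -0.21 (adjusted p = 5.43e-05). The gene spans chr3:23945286-23980617 on the plus strand.

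The log2 ratio of NR1D1 over NR1D2 within a library, which does not depend on library scaling, was -0.14, 0.21 and 0.00 in DMSO and -1.21, -0.97 and -1.12 in BRL-50481. The ratio lay near 0 in control cells and was lower in every treated library than in any control. The means differed by -1.12. A two-sided exact permutation test gave p = 0.1, the smallest that 3 against 3 libraries allow, and 0.15 after adjustment over the 6 ratios tested. A ratio does not remove a trend with transcript length or GC content, and none of the 6 was rerun with that correction. With it, the limma fit gave log2 fold changes of -1.18 for NR1D1 and -0.21 for NR1D2.

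The period genes code for the PER proteins that carry CRY into the nucleus, and PER1 and PER2 are the members most needed for rhythm. PER1 had 1765, 1932 and 1793 normalised counts in DMSO and 1415, 1525 and 1303 in BRL-50481. All treated libraries were below all controls. The mean fell from 1829.8 ± 89.3 to 1414 ± 111 (n = 3, SD), a log2 fold change of -0.37 (SE 0.0681, adjusted p = 0.0004). The call held with each library left out, at -0.43 to -0.32. PER1 lies on chr17:8140472-8156506, minus strand, and its exons share sequence on that strand with MIR6883 and 1 unnamed annotated gene, so reads there could have been set aside as ambiguous.

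PER2 was higher in its mean and did not pass. Its counts were 489, 416 and 427 in DMSO and 505, 572 and 435 in BRL-50481. BRL-50481 replicate 3 lay among the controls. The log2 fold change was 0.18 (SE 0.105, adjusted p = 0.166), and it passed without DMSO replicate 1, at 0.25 (adjusted p = 0.0185), or without BRL-50481 replicate 3, at 0.28 (adjusted p = 0.0466). It was 0.08 (adjusted p = 0.56) without BRL-50481 replicate 2 and 0.03 (adjusted p = 0.765) after the length and GC correction. PER2 lies on chr2:238244044-238290102, minus strand.

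PER3, the period gene least needed for rhythm, had counts of 1049.8, 941 and 942 in DMSO and 857, 840.1 and 861 in BRL-50481. The groups did not overlap, and the treated libraries were close together. The mean fell from 978 ± 62.5 to 852 ± 11 (n = 3, SD), a log2 fold change of -0.20 (SE 0.0677, adjusted p = 0.024). The call was kept in 2 of 6 fits with a library left out, with adjusted p up to 0.0797. It was lost without DMSO replicate 1, without any 1 of the BRL-50481 replicates, and under quantile normalisation (-0.15, adjusted p = 0.0704) and median centring (-0.17, adjusted p = 0.0523). After the length and GC correction the fall was larger, at -0.35 (adjusted p = 1.72e-05). PER3 lies on chr1:7784291-7845177, plus strand, with UTS2 on the other strand.

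Within a library, the log2 ratio of PER1 over PER2 was 1.85, 2.21 and 2.07 in DMSO and 1.48, 1.41 and 1.58 in BRL-50481. The ratio was lower in every treated library than in any control. The difference was -0.55 and that of PER2 over PER3 was 0.37, each with an exact permutation p = 0.1 (two-sided, 0.15 adjusted). PER1 over PER3 went from 0.90 ± 0.145 to 0.73 ± 0.131 (SD, n = 3 per group) with overlapping groups (exact permutation p = 0.2, adjusted 0.24).

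Both cryptochromes, the main repressors of the activator pair, were lower. CRY1 had 1797, 1680.0 and 1799.8 normalised counts in DMSO and 1412, 1403 and 1445 in BRL-50481. The treated values lay within a narrow band under every control. The mean fell from 1759 ± 68.4 to 1420.2 ± 22.1 (n = 3, SD), a log2 fold change of -0.31 (SE 0.0568, adjusted p = 0.000432). CRY2 had 865, 827 and 699 in DMSO and 547, 588 and 583 in BRL-50481. DMSO replicate 3 was the lowest control and still lay above every treated library. Its mean fell from 797 ± 87.2 to 572 ± 22.6, a log2 fold change of -0.47 (SE 0.0863, adjusted p = 0.000408). Both calls held in all 6 fits with a library left out, at -0.34 to -0.29 for CRY1 and -0.56 to -0.41 for CRY2. CRY1 lies on chr12:106991364-107093549, minus strand, and CRY2 on chr11:45847118-45883248, plus strand. The log2 ratio of CRY1 over CRY2 had a mean of 1.15 ± 0.189 (SD, n = 3) in control libraries and of 1.31 ± 0.0576 in treated libraries, with overlapping groups (exact permutation p = 0.3, adjusted 0.3), so a difference in the size of their falls was not detectable here.

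**Figure D2:**
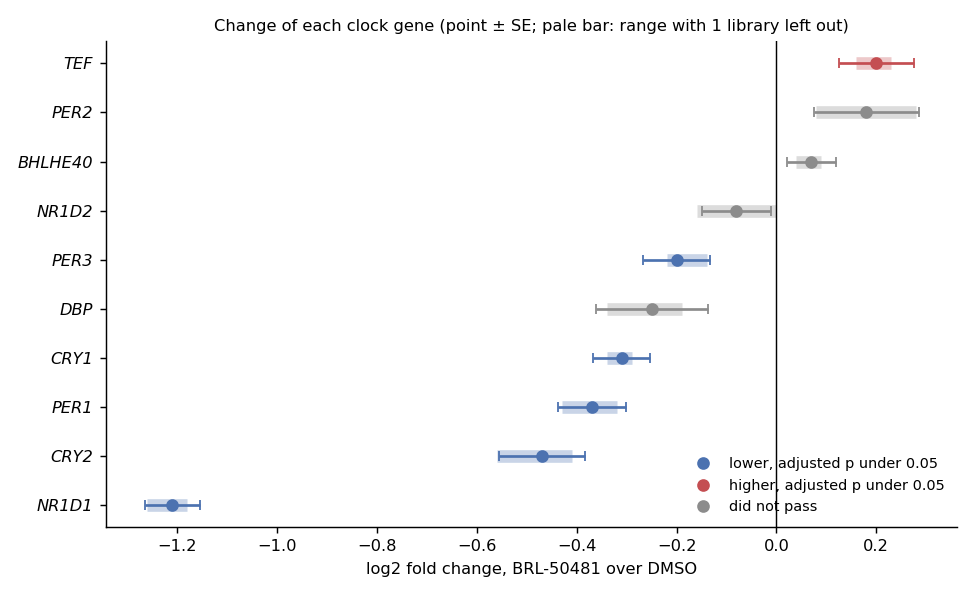
log2 fold change of BRL-50481 over DMSO (horizontal axis) for the 10 clock genes, as point ± SE from the limma fit, with a pale bar for the range when 1 library is left out. Blue genes were called lower, the red gene higher and grey genes did not pass, and NR1D1 at -1.21 stands apart from the others, which lie between -0.47 and 0.20.

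DBP and TEF are PAR basic leucine zipper factors that bind D-boxes, and DBP is itself a direct output of the activator pair. DBP had 281, 346 and 327 normalised counts in DMSO and 246, 253 and 300.5 in BRL-50481. The lowest control lay below the highest treated library. The log2 fold change was -0.25 (SE 0.112, adjusted p = 0.0673). It passed without DMSO replicate 1 (-0.34, adjusted p = 0.00611), without BRL-50481 replicate 3 (-0.34, adjusted p = 0.0322) and under quantile normalisation (-0.33, adjusted p = 0.0211), and it was -0.16 (adjusted p = 0.153) after the length and GC correction. DBP lies on chr19:48630030-48637379, minus strand, and overlaps exons of SPHK2 on the other strand, whose log2 fold change was 0.10 (adjusted p = 0.463).

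TEF was the 1 gene of the 10 called higher. Its counts were 502, 509 and 466 in DMSO and 578, 569 and 553 in BRL-50481. Every treated library lay above every control. The mean rose from 492 ± 23.3 to 567 ± 12.4 (n = 3, SD), a log2 fold change of 0.20 (SE 0.0755, adjusted p = 0.0332). The call was kept in 2 of 6 fits with a library left out, with adjusted p up to 0.13. It was lost without DMSO replicate 3, without any 1 of the BRL-50481 replicates, and after the length and GC correction (0.14, adjusted p = 0.07). TEF lies on chr22:41367333-41399326, plus strand.

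The log2 ratio of DBP over TEF was -0.84, -0.56 and -0.51 in DMSO and -1.23, -1.17 and -0.88 in BRL-50481. The highest treated library lay just under the lowest control. The difference was -0.46 (two-sided exact permutation p = 0.1, adjusted 0.15).

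BHLHE40 represses from E-boxes and responds to many signals besides the clock. It had 3455, 3238 and 3404 normalised counts in DMSO and 3468, 3522 and 3586 in BRL-50481. The groups just failed to touch, at 3455 and 3468. The log2 fold change was 0.07 (SE 0.0496, adjusted p = 0.261), and it passed under quantile normalisation only, at 0.12 (adjusted p = 0.0473). BHLHE40 lies on chr3:4979437-4985323, plus strand, with BHLHE40-AS1 on the other strand.

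**Figure D3:**
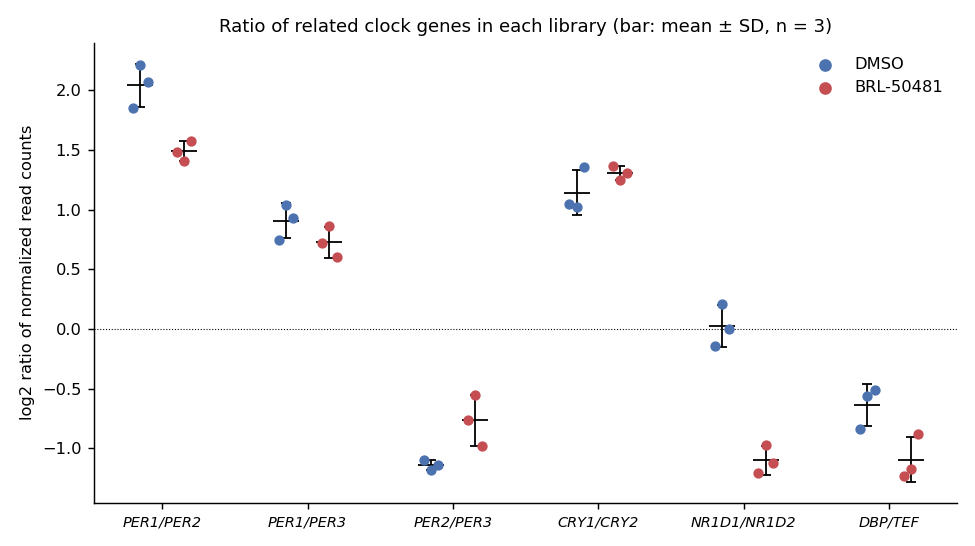
log2 ratio of normalised read counts (vertical axis) for 6 pairs of related clock genes in each DMSO library (blue) and BRL-50481 library (red), with mean ± SD (n = 3) as black bars. The groups are apart for PER1/PER2, PER2/PER3, NR1D1/NR1D2 and DBP/TEF and overlap for PER1/PER3 and CRY1/CRY2.

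Levels of different genes were compared as normalised reads per kilobase of transcript, using 1 annotated transcript length per gene. In DMSO cells NR1D1 stood highest, at 2649 ± 88.1 (SD, n = 3), and PER2 lowest, at 69.6 ± 6.17. NR1D2 followed NR1D1 at 1315 ± 145, then BHLHE40 at 1068 ± 35.9, CRY1 at 589 ± 22.9, PER1 at 391 ± 19.1 and CRY2 at 193 ± 21.1. PER3 at 154 ± 9.81 and DBP at 146 ± 15.4 had overlapping libraries, and TEF stood at 112 ± 5.33. In BRL-50481 cells the top of the order closed up. NR1D2 at 1236 ± 43.4 overlapped NR1D1 at 1148 ± 72.2, which in turn overlapped BHLHE40 at 1119 ± 18.8. CRY1 at 475 ± 7.4 and PER1 at 302 ± 23.8 kept their places. CRY2 at 139 ± 5.46 overlapped PER3 at 134 ± 1.72, TEF at 129 ± 2.82 overlapped DBP at 123 ± 13.7, and PER2 stayed lowest at 79 ± 10.7.

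**Figure D4:**
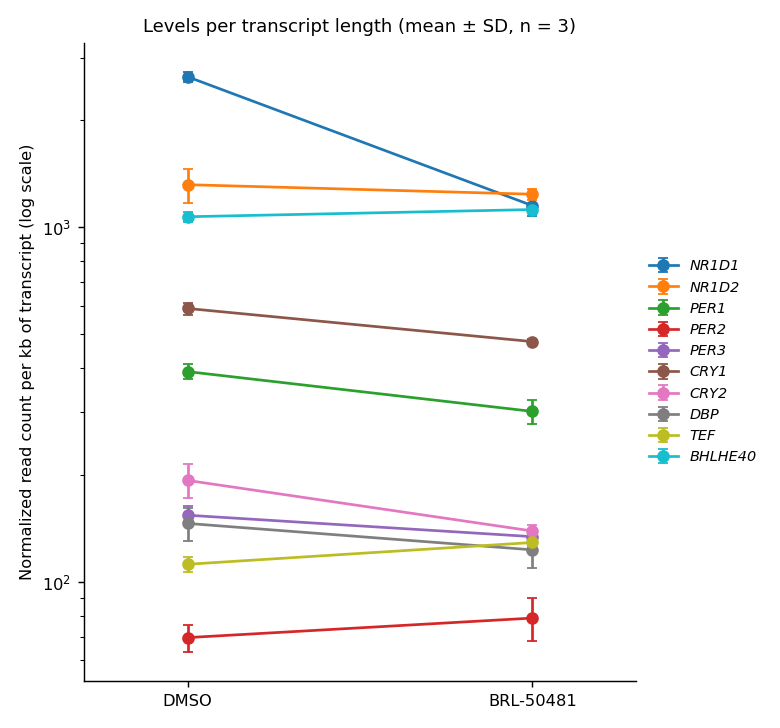
Normalised read count per kb of transcript (vertical axis, log scale) of the 10 clock genes in DMSO and BRL-50481 cells, as mean ± SD of 3 libraries, with a line joining the means of each gene. NR1D1 stands above the others in DMSO, at 2649, and among NR1D2 and BHLHE40 in BRL-50481, at 1148.

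The genes most like the extremes of the list were found by Pearson correlation of log2 values over the 6 libraries, among 11455 genes with a mean of at least 100 normalised counts. For NR1D1 they included TCOF1 (r = 0.9996) and SYT7 (r = 0.9993). TCOF1, which codes for the nucleolar protein treacle, had 8385, 8318 and 8087 counts in DMSO and 4703, 5031 and 4742 in BRL-50481. For TEF they were NREP (r = 0.9949), POGLUT1 (r = 0.9944) and METTL22 (r = 0.993). The 6 points share the split between groups, so these values mainly rank genes whose groups stand apart, and they are a description.

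Outside the 10 genes, 31 of 33 other clock genes on the lists used were in the table, CSNK1E and FBXL21 having no entry. Of the 31, 8 were higher, 11 lower and 12 did not pass, with a median log2 fold change of 0.00. These shares, 25.8% higher and 35.5% lower, lie near the 28.9% and 29.8% of all genes. The 11 lower became 17 after the length and GC correction. Among the 7 activators and ROR receptors 3 were higher and 1 was lower. NPAS2, which can replace CLOCK, rose from 2298, 2461 and 2339 to 3544, 3699 and 3592, a log2 fold change of 0.61 (SE 0.0513, adjusted p = 5.21e-07). CLOCK itself had 0.14 (adjusted p = 0.211), turned to -0.11 (adjusted p = 0.0298) after the length and GC correction, and had 0.27 (adjusted p = 1.74e-05) without DMSO replicate 1. ARNTL2, a relative of ARNTL, was higher by 0.27 on the log2 scale (adjusted p = 0.0048). It came to 0.10 (adjusted p = 0.0283) after the length and GC correction and lost its call in limma without a trend (adjusted p = 0.0508). ARNTL, the gene that NR1D1 and NR1D2 repress, had 592, 554 and 539 counts in DMSO and 524, 461 and 462 in BRL-50481. It was lower by the test, at -0.22 (adjusted p = 0.0344), and lost that call without DMSO replicate 1, BRL-50481 replicate 2 or BRL-50481 replicate 3 (adjusted p up to 0.125), under median centring (-0.19, adjusted p = 0.0667) and in limma without a trend (adjusted p = 0.0511). RORB was higher at 1.14 (adjusted p = 0.00163) on few reads, 17.9 to 65.4 normalised counts.

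A list of 6 genes held relatives of the listed repressors and PAR factors and other clock-linked genes such as TIMELESS and TIPIN. Of the 6, 1 was higher (16.7%, beside 28.9% of all genes) and 2 were lower (33.3%, beside 29.8%). NFIL3, a repressor that competes with DBP and TEF for D-boxes, fell from 3201 ± 143 to 2505 ± 44.6 (n = 3, SD), a log2 fold change of -0.35 (adjusted p = 7.88e-05). BHLHE41 (DEC2), the relative of BHLHE40, had 0.04 (adjusted p = 0.57), with the sign turned after the length and GC correction (-0.01). TIMELESS and TIPIN, which form a replication fork complex, parted: TIMELESS was higher by 0.58 (adjusted p = 8.78e-06) and TIPIN lower at -0.56 (adjusted p = 4.74e-05).

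Of 11 enzymes that modify PER and CRY, 3 were higher (27.3%, near the 28.9% of all genes) and 4 lower (36.4%, near 29.8%), with a median of 0.00. The kinase genes CSNK1A1 (0.50, adjusted p = 6.07e-06) and GSK3B (0.44, adjusted p = 6.68e-05) were higher, GSK3B by 0.24 after the length and GC correction. CSNK2A1 was at 0.00 (adjusted p = 0.954), and at -0.30 (adjusted p = 0.000415) after the length and GC correction. FBXW11, a ubiquitin ligase subunit that marks PER for breakdown, was lower at -0.43 (adjusted p = 2.67e-05), as was the phosphatase subunit PPP1CA at -0.21 (adjusted p = 0.00494). USP2, a deubiquitinase gene that is also a clock output, had 49.6, 64.7 and 38.8 counts in DMSO and 12.1, 12.1 and 15.5 in BRL-50481, a log2 fold change of -1.85 (adjusted p = 6.28e-05).

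Of 9 genes with clock-driven transcription in many tissues, 6 were lower and 1 was higher, with a median of -0.35, against 29.8% of all genes lower and 28.9% higher. NFIL3 and USP2 are also on the lists above. NOCT (Nocturnin) fell from 1948, 1721 and 1830.5 to 777, 827 and 840.4, a log2 fold change of -1.17 (SE 0.0661, adjusted p = 1.85e-08). KLF10 was lower at -0.86 (adjusted p = 1.13e-08) and TSC22D3 (GILZ, a glucocorticoid-induced gene) at -0.69 (adjusted p = 6.83e-07). NAMPT, the NAD salvage enzyme, was the 1 gene higher, from 36207 ± 1067 to 56885 ± 1535 (n = 3, SD), a log2 fold change of 0.65 (adjusted p = 8.25e-08).

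PER1 belongs to the genes that CREB can switch on, so a list of 14 cyclic AMP and CREB genes was read beside it. The list mixes such target genes with CREB1 itself, related factors and coactivators such as CRTC2. Its counts are therefore not counts of targets alone. Of the 14 genes, 9 were lower, 1 (CREB1) was higher and 4 did not pass, with a median log2 fold change of -0.36. Over all genes 29.8% were lower and 28.9% higher. FOSB had the largest change, from 503, 483 and 442 to 67.4, 60.4 and 71.7 (-2.82, adjusted p = 1.64e-09). FOS (-1.44, adjusted p = 2.57e-07), DUSP1 (-1.26, adjusted p = 3.85e-09) and NR4A1 (-1.22, adjusted p = 1.89e-07) were also lower, and these are immediate-early genes that serum and growth factor signals drive as well as cyclic AMP. CRTC2, a coactivator of CREB, was lower at -0.37 (adjusted p = 9.27e-05). CREB1 itself was higher at 0.49 (adjusted p = 0.000124), and at 0.24 (adjusted p = 5.15e-05) after the length and GC correction. PDE7A, the enzyme the compound inhibits, had 406, 405 and 409 counts in DMSO and 341, 292 and 261 in BRL-50481 (-0.45, adjusted p = 0.00199), and its relative PDE7B rose from 179.6, 192 and 186 to 386, 424 and 332 (1.02, adjusted p = 3.58e-06). An inhibitor acts on the protein, so these mRNAs do not check the treatment. In separate assays on triple-negative lines including MDA-MB-231, the paper reports that BRL-50481 raised cyclic AMP and CREB phosphorylation. Cyclic AMP was measured there at a lower dose than the one taken for these libraries.

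**Figure D5:**
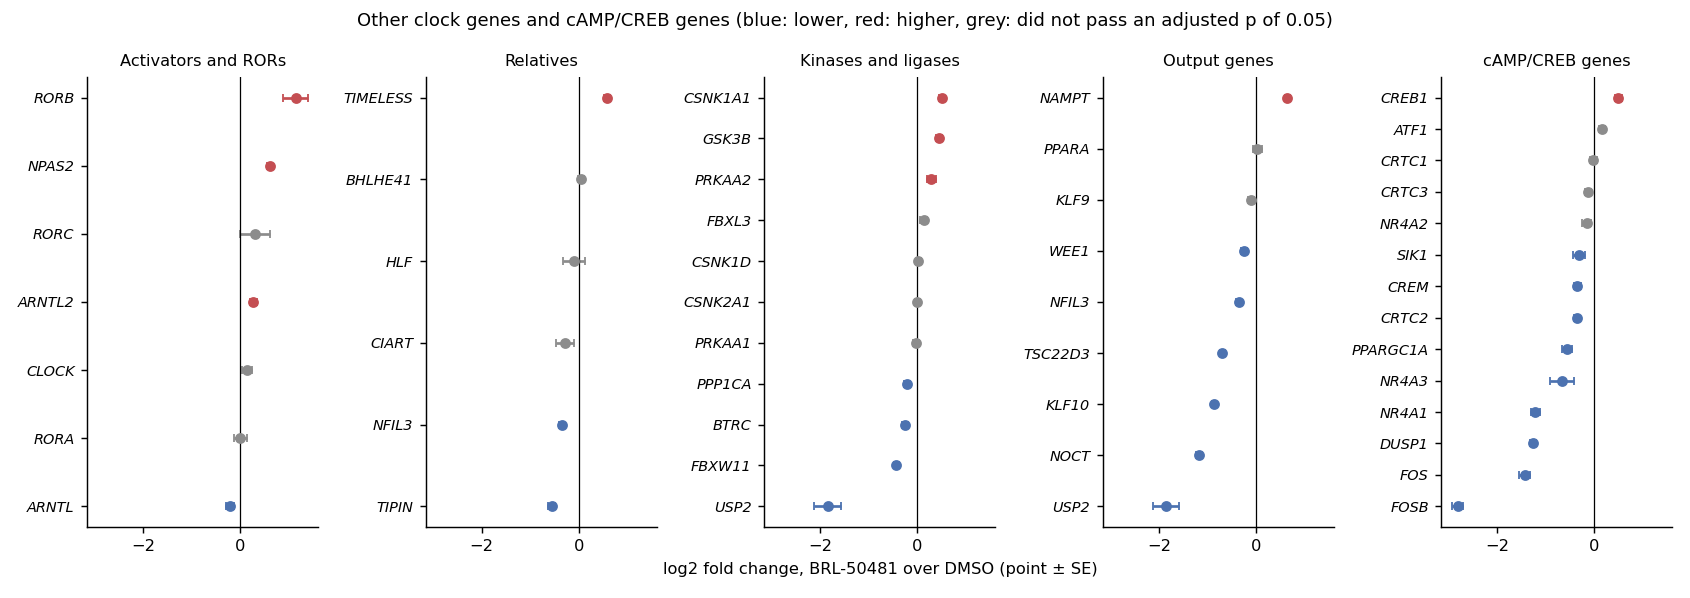
log2 fold change of BRL-50481 over DMSO (horizontal axes, point ± SE from the limma fit) for other clock genes in 4 lists and for cyclic AMP and CREB genes. Red genes were called higher, blue lower, and grey did not pass; USP2 at -1.85 and FOSB at -2.82 lie farthest to the left.

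The libraries held 30750573 to 33446984 reads on genes. The series notes call the replicates biological. The limma p-values set the difference between groups against the spread between libraries, which the fit draws towards a trend over all genes. DMSO libraries spread more (residual SD of log2 values 0.0964 to 0.141) than BRL-50481 libraries (0.0792 to 0.0833), and DMSO replicate 1 lay farthest from its group. Of the defining markers of a mesenchymal triple-negative line, VIM (56075 to 88612 normalised counts), CD44 and AXL were abundant. SPARC was low, at 13.3 to 36.3 normalised counts. ESR1 was not listed, while KRT18, EPCAM and ERBB3 were also present. The leukocyte genes PTPRC and CD3E and the endothelial gene VWF were not listed, CDH5 was at 0 to 15.1 normalised counts, and CD14 (389 to 508) and PECAM1 (325 to 537) were present. Marker genes moved between the groups in both directions. Of 5 mesenchymal markers 4 were higher, beside 28.9% of all genes. VIM was higher by 0.58 on the log2 scale (adjusted p = 2.91e-07) and SPARC by 1.22 on few reads. AXL (0.12) was called in 2 of 6 fits with a library left out, and ZEB1 at -0.06 was not called. Of 5 epithelial and luminal markers tested, CDH1 (1.39, on 31.7 to 105 normalised counts) and GATA3 (0.57) were higher and KRT18 (-0.31) and EPCAM (-0.16) lower. Of 3 endothelial genes PECAM1 (0.48) and CDH5 were higher and KDR (-0.60) lower. Their part in the clock gene values was not tested.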

How the data were processed

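Per the labels and the study's methods, the authors aligned single-end reads to hg38 with STAR 2.7.1a and counted them by strand per gene with HTSeq on a UCSC annotation. The study's methods also name a filter on low normalised counts, which 15246 of the 15651 deposited genes passed here. The authors divided each library's counts by a DESeq2 1.28 size factor. The labels name oligo-dT selection and the design text ribosomal depletion. The deposited signal is this normalised count. A read was worth 0.9693 to 1.021 normalised counts, by library, and 100% of values came to a whole number of reads within 0.01. The authors' own log2 fold changes and p-values, deposited in the same table, were not used, and 0 columns of sample values were left out.

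Values were put on a log2(normalised count + 1) scale and fitted with limma 3.58.1 (trend, R 4.3.3) for genes with at least 4 normalised counts in at least 3 libraries. Benjamini-Hochberg adjusted p-values run over 15246 genes. The code of the fit was tried on simulated counts with 1 spread setting for every gene and both groups. The real groups differed in spread, so this run does not check the calls reported here. Paralog ratios had two-sided exact permutation tests (scipy 1.17.1). Positions and transcript lengths come from GENCODE on hg38, matched by current or older symbol for 96.5% of genes, and promoters from RefSeq. Alternatives changed the pseudocount, filter, normalisation, variance model, length and GC trend and the libraries used.

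The members and lists were chosen with earlier results of these data known. Named were all 10 members, PDE7A, PDE7B and, in each other list, the 3 most abundant and up to 4 most changed called genes, and the 3 genes most correlated with the most raised and most lowered member. THRA, SPHK2 and the cell line markers were named for the checks they serve. A few genes that these rules or lists would name are not reported here.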

Additional observations from a re-analysis of the deposited data

How the results depend on the processing

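The count of clock genes called lower was 4 to 6 in every alternative run (5 as reported). The count called higher (1 as reported) was 2 under quantile normalisation, 0 after the length and GC correction and 0 to 2 with 1 library left out, through TEF, PER2 and BHLHE40. For the cyclic AMP and CREB genes, the 1 called higher became 2 under quantile normalisation, median centring and the length and GC correction, and 1 to 2 with 1 library left out. The other clock genes called lower went from 11 to 17 after the length and GC correction. The sign turned for CLOCK (-0.11), BHLHE41 (-0.01) and CSNK2A1 (-0.30) after the length and GC correction, and CSNK2A1 ran from -0.02 to 0.03 with 1 library left out. The cause of these moves was not tested. NR1D1, PER1, CRY1 and CRY2 kept their direction and call in every alternative run.

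The edgeR and DESeq2 alternatives on whole reads were not run, although the scaled values came to whole reads. With the replicate number as a replicate block, 1 clock gene was higher and 6 were lower, DBP passing at -0.25 (adjusted p = 0.049), and over all genes 4440 were higher and 4589 lower. The deviations of same-numbered libraries correlated at 0.121, 0.104 and 0.0514 over 12251 genes, and every library but BRL-50481 replicate 3 correlated best with its own number, a hint from the data. Whether same-numbered libraries were paired cannot be told from these values, and the main fit did not use the number. With 3 libraries a group an exact test of a ratio cannot go below p = 0.1.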
